A study of Mus musculus with 6 samples.

Results

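The Toll-like receptors and Cd14 were followed in cultures of mouse macrophages by RNA sequencing, as 10 genes of the 24394 gene symbols listed for the series. The genes were taken by symbol: Tlr1, Tlr2, Tlr4 and Tlr6, whose proteins sit at the cell surface, Tlr3, Tlr7, Tlr8, Tlr9 and Tlr13, whose proteins sit in endosomes, and Cd14, a co-receptor of the surface. The cells were bone marrow-derived macrophages of C57BL/6 mice at postnatal day 28, grown for 7 days in medium with 50 ng/ml of recombinant macrophage colony-stimulating factor, and no mutation or transgene was given for any group. Of the 6 libraries 3 were controls and 3 were made from cultures given 5 cartilage fragments for each macrophage over 24 h (stimulated cultures). The fragments were prepared from crushed femoral head cartilage of mice, and marrow and cartilage came from the same animals. The labels do not say whether the replicates came from different animals, so the p-values measure the spread between these samples only, which may be technical.

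Toll-like receptors recognise molecules of microbes and of damaged tissue and pass the signal through the adaptors Myd88 and Ticam1 to NF-kB and interferon regulatory factors. Surface receptors mainly bind lipids and proteins, with Tlr2 pairing with Tlr1 or Tlr6 for lipopeptides and Tlr4 binding lipopolysaccharide with Ly96 and Cd14, and fragments of matrix such as hyaluronan and biglycan have been described as ligands of Tlr2 and Tlr4. Endosomal receptors bind nucleic acids, need Unc93b1 to leave the endoplasmic reticulum and are cut by proteases before they signal. Macrophages are known for carrying members of both classes.

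The values were FPKM (fragments scaled to transcript length and library depth), which the authors estimated with Cufflinks for each library, so levels are per length and can be set side by side between genes. Each file listed annotated transcripts (reference lines) and others assembled from that library's own reads (assembled lines), and both were summed per symbol. An estimated 699000 to 776000 fragments per library lay behind the values, and this depth limits the precision of weakly expressed genes. The estimate rests on the deposited coverage and FPKM. The methods of the study state many times more mapped reads per sample, and this difference was not resolved. Between replicates of a group the estimated fragments differed by more than counting noise (mean chi-square per gene of 1.45 to 1.60, where counting alone gives about 1), and between groups by 1.99 to 2.49, so no library was a copy of another. Of the macrophage markers 9 of 9 were measured, with summed values of 29767 to 39515 FPKM in controls and 30302 to 40558 FPKM in stimulated cultures. Most of this sum was Lyz2, with 26780 to 36623 FPKM in controls and 26944 to 37370 FPKM in stimulated cultures, while Adgre1 rose and Itgam was apart as higher and passed on scaled fragments (limma adjusted p = 0.000208). Of the markers of other cells, 7 of 13 chondrocyte markers were listed at 0 in all libraries (among them Col9a1, Matn1 and Prg4) and none reached a mean of 1 FPKM, with sums of 2.40 to 5.21 FPKM in controls and 1.44 to 3.35 FPKM in stimulated cultures, Cd3d, Cd3e, Cd3g and Cd8a of 5 T cell markers were at 0 throughout, and the 6 dendritic cell markers summed to between 0.490 and 2.72 FPKM. The 9 neutrophil markers with a value summed to 829 to 953 FPKM in controls and 758 to 1130 FPKM in stimulated cultures, with S100a8 at 250.1 to 454 FPKM and S100a9 at 329 to 502 FPKM over the 6 libraries. Ngp stood at 47.9 to 84.8 FPKM and Ltf at 23.3 to 34.3 FPKM, while Elane and Mpo reached at most 1.88 and 1.71 FPKM. The 6 fibroblast markers summed to 155 to 169 FPKM in controls and 103 to 119 FPKM in stimulated cultures. Of the 4 tested, 2 were apart as lower and past the limma threshold on scaled fragments, Col1a1 and Col1a2. Col3a1 overlapped between groups, with a log2 fold change of -0.70 on FPKM. Dcn also overlapped, at 2.79 ± 0.962 FPKM in controls and 3.52 ± 1.53 FPKM in stimulated cultures. Dcn rested on about 10 fragments in controls and 12 in stimulated cultures, too few to tell its direction. The median log2 fold change of the 4 tested genes was -0.56. The part of these markers in the results was not tested. In bulk RNA, fewer cells of a type and less RNA per cell cannot be told apart.

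The promoters of 7 of the 10 genes had entries in the set of RefSeq promoters used here (GRCm38.p6, the build of the files, mm10), 9 entries in all. Each ran from 250 bases before to 50 bases after a transcript start. Tlr4, Tlr7 and Cd14 had no entry in this set, so their promoters were not searched. The 9 entries were searched on both strands for the consensus of NF-kB and for the core of the PU.1 motif, GAGGAA. Of 32851 promoters of the same length 8.46% held the NF-kB consensus and 28.3% held the PU.1 core, and of the 9 entries 2 held the former (Tlr2 and Tlr3) and 4 the latter (Tlr1, Tlr8, Tlr9 and Tlr13). The promoters of 4 genes are shown because their genes stand for the patterns below: Tlr2 and Tlr1, higher in all stimulated libraries, Tlr8, lower in all of them, and Tlr13, with no difference found. Capitals mark the matches, and the sequences read along the strand of the gene.
Tlr2, chr3:83841559-83841858, minus strand: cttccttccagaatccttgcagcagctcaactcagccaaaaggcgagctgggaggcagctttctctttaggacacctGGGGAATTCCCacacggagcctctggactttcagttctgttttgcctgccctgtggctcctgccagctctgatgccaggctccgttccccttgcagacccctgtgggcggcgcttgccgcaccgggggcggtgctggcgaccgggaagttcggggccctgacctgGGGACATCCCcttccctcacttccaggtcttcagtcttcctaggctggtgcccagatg
Tlr1, chr5:64933509-64933808, minus strand: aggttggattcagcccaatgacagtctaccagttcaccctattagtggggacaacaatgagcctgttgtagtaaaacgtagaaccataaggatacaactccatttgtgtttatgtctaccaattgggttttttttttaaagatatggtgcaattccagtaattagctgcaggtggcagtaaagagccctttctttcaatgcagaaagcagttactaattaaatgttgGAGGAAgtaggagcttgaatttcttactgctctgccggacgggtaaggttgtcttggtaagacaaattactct
Tlr8, chrX:167264280-167264579, minus strand: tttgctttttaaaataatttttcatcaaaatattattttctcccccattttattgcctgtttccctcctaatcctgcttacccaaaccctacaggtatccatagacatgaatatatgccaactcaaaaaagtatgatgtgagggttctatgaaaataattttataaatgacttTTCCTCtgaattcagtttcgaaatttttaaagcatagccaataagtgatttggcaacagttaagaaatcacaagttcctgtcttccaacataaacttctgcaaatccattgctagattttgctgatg
Tlr13, chrX:106143025-106143324, plus strand: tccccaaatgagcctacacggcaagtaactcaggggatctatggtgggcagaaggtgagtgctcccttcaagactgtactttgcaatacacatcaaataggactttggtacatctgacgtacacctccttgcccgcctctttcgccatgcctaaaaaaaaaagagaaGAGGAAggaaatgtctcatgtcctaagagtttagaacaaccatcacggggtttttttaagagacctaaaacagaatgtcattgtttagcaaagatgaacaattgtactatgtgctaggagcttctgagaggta
The Tlr2 promoter held 2 stretches with the NF-kB consensus, the first beginning 173 bases and the second 8 bases before the start. Both read as a match on either strand, and the first held overlapping matches, so 5 matches were counted over the 2 stretches. The PU.1 core began 23 bases before the start in the Tlr1 entry shown, 77 bases before it in Tlr8, where it lay on the other strand, and 83 bases before it in Tlr13. Tlr1 had another entry, not shown, with its start at 64932699 (NM_030682), and it held neither motif. In controls 1 to 3 the reference line of NM_030682 held 0, 9.11 and 0 FPKM, and in stimulated 1 to 3 it held 21.1, 24.7 and 2.97 FPKM. The line of NM_001276445, which has the start of the entry shown, held 12.5, 3.02 and 0 FPKM in controls. In stimulated cultures that line held 0, 4.75 and 15.6 FPKM, so the split between these transcripts differed between libraries in both groups. A match describes these letters and is no evidence of binding.

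In controls, Cd14 was the most abundant of the 10 transcripts at 118 ± 5.28 FPKM (SD, n = 3), followed by Tlr2 at 106 ± 12.1 FPKM and Tlr13 at 93.9 ± 6.77 FPKM. The next levels were 73.5 ± 12.4 FPKM for Tlr8, 64.8 ± 6.15 FPKM for Tlr7 and 28.7 ± 1.69 FPKM for Tlr4. Tlr1 at 12.5 ± 0.458 FPKM, Tlr6 at 8.72 ± 1.76 FPKM, Tlr3 at 3.12 ± 0.465 FPKM and Tlr9 at 2.84 ± 1.98 FPKM closed the order. The libraries of Cd14 and Tlr2, of Tlr2 and Tlr13, of Tlr8 and Tlr7 and of Tlr3 and Tlr9 overlapped, so these neighbours did not differ beyond their spread, while the other neighbours in the order were separate. In stimulated cultures the order was the same except that Tlr1 stood above Tlr4 and Tlr9 above Tlr3, both pairs with overlapping libraries. Tlr5, the flagellin receptor, was listed at 0 in 5 libraries and at 0.454 FPKM in control 3, and Tlr11 and Tlr12 were at 0 in all 6.

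**Figure D1:**
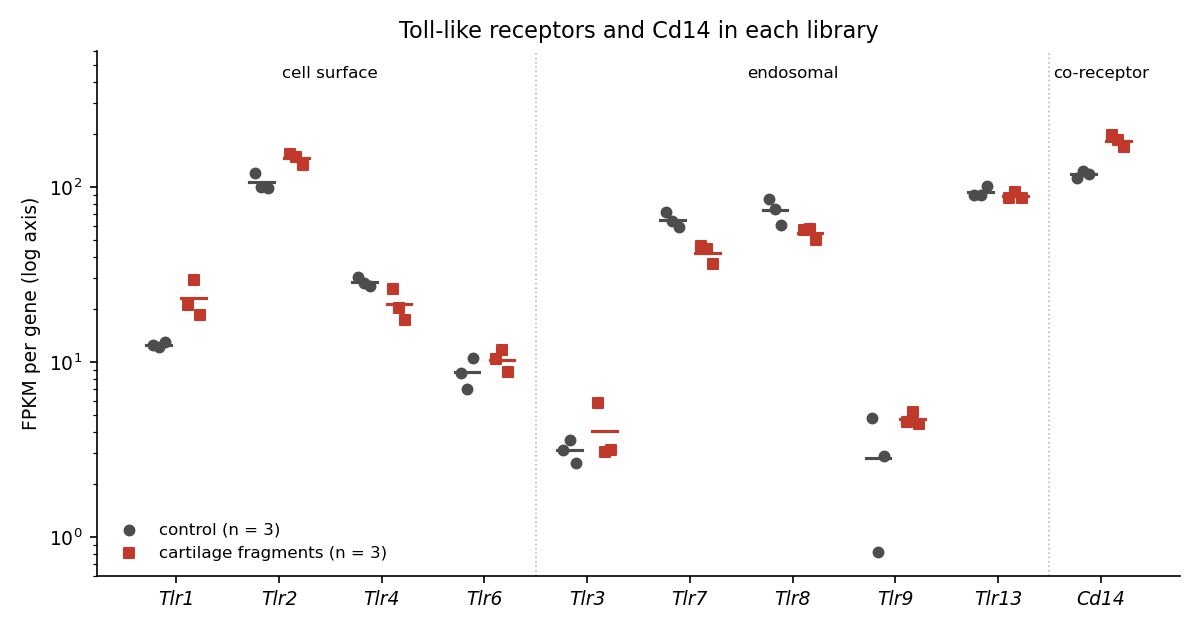
FPKM of each gene (log axis) in the 3 control libraries (grey circles) and the 3 libraries with cartilage fragments (red squares), with a line at the mean of each group. The groups are apart for Tlr1, Tlr2 and Cd14 (higher) and for Tlr4, Tlr7 and Tlr8 (lower), and overlap for Tlr6, Tlr3, Tlr9 and Tlr13.

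The groups did not overlap for 6 of the 10 genes, 3 higher with fragments (Cd14, Tlr2 and Tlr1) and 3 lower (Tlr7, Tlr8 and Tlr4), where 9.04% of the 10393 tested genes were apart as higher and 6.89% as lower. The test was limma on log2(FPKM + 0.1), run on every gene whose mean reached 1 FPKM, two-sided and adjusted by the Benjamini-Hochberg method. At an adjusted p under 0.05, 0.308% of all tested genes were higher and 0.0577% lower, and of the 10 genes 1 was higher, Cd14, and 0 were lower. At an unadjusted p under 0.05 the limma fit held 3 higher and 3 lower genes among the 10, the same 6 whose groups were apart, where 5.39% of all tested genes were higher and 3.8% lower by that rule. An exact permutation test of 3 against 3 libraries cannot give a p below 0.1. As a second scale, the fragments of each gene were estimated from the coverage that the authors listed, divided by the library's fragments and tested with limma in the same way. On these scaled fragments, 1.58% of all tested genes were higher and 0.837% lower, and of the 10 genes 3 were higher (Cd14, Tlr2 and Tlr1) and 2 lower (Tlr7 and Tlr8).

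Cd14 (NM_009841, chromosome 18, 36725064 to 36726815, minus strand, 2 exons) encodes a protein that hands lipopolysaccharide and other ligands to Tlr4 and Tlr2. Its values were 112, 123 and 118 FPKM in controls 1 to 3 and 198, 184 and 168 FPKM in the stimulated cultures. Every stimulated library lay above every control, and the gap between the groups exceeded the spread within either. Cd14 rose 1.55-fold, from 118 ± 5.28 to 183 ± 14.8 FPKM (SD, n = 3), which is 0.63 on the log2 scale (95% interval 0.42 to 0.85, standard error 0.0926, limma adjusted p = 0.0388). On scaled fragments the log2 fold change was 0.63, with an adjusted p of 9.82e-05 from limma. The FPKM call was lost when any 1 of the 6 libraries was left out, with a log2 fold change of 0.58 to 0.69 and an adjusted p of 0.0557 to 0.200 from limma. Cd14 and Tlr2 belong to a list that the study drew up from these same samples, as do Tlr4 and Tlr8, so that list is no independent evidence of their direction. By quantitative PCR the study also reported Tlr2, Irak3 and Tnf as raised in bone marrow-derived and in peritoneal macrophages given fragments. Cd14, Tlr4 and Tlr8 are not among the genes it names for that assay.

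Tlr2 (NM_011905, chromosome 3, 83836272 to 83841608, minus strand, 3 exons) is the shared partner of the lipopeptide receptors, and its promoter is the one above with the NF-kB consensus near the start. Its values were 120.3, 100.4 and 98.4 FPKM in controls 1 to 3 and 154, 148 and 134 FPKM in the stimulated cultures. The groups did not overlap, with control 1 nearest to the stimulated libraries. The log2 fold change was 0.46 (standard error 0.111, 95% interval 0.20 to 0.71, limma adjusted p = 0.195), and on scaled fragments it was 0.48 (limma adjusted p = 0.000648).

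Tlr1 (NM_001276445 and NM_030682, chromosome 5, 64924680 to 64933558, minus strand), the partner of Tlr2 for triacylated lipopeptides, stood at 12.5, 12.1 and 13.0 FPKM in controls. In the stimulated cultures it stood at 21.1, 29.5 and 18.5 FPKM. The controls lay close together and the stimulated libraries were spread more widely, with the highest value in stimulated 2. The mean went from 12.5 ± 0.458 to 23.0 ± 5.73 FPKM (SD, n = 3), a difference of 0.84 on the log2 scale (95% interval 0.36 to 1.33, limma adjusted p = 0.201). On scaled fragments it was 0.75 (limma adjusted p = 0.0439), just past the threshold.

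Tlr6 (NM_011604, chromosome 5, 64953095 to 64960034, minus strand), the partner of Tlr2 for diacylated lipopeptides and the neighbour of Tlr1 on the chromosome, showed no difference that the test found. It stood at 8.68, 6.98 and 10.5 FPKM in controls and at 10.4, 11.7 and 8.75 FPKM in stimulated cultures, and the groups overlapped. The log2 fold change of 0.24 had a 95% interval of -0.29 to 0.78 (limma adjusted p = 0.798), which leaves room for a change as large as that of Cd14. The ratio of Tlr1 to Tlr6 FPKM was 1.44, 1.74 and 1.24 in controls and 2.03, 2.52 and 2.12 in stimulated cultures, apart in every library. The 2 transcripts share sequence: the longest identical run was 229 bases, in the coding part of 1 exon of each gene (64925537 to 64925765 in Tlr1 and 64953828 to 64954056 in Tlr6, on chromosome 5 of GRCm38, GENCODE M21), and 8.85% of the 100-base windows of Tlr1 occurred in Tlr6. Reads from this stretch can be assigned to either gene, and their part in the values was not tested. No other pair of the 10 genes shared an exact run over 18 bases.

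Tlr4 (NM_021297, chromosome 4, 66827811 to 66842796, plus strand, 3 exons), the receptor of lipopolysaccharide, was the one surface receptor with lower values after exposure. Controls held 30.5, 28.3 and 27.2 FPKM, and the stimulated libraries 26.2, 20.4 and 17.5 FPKM. The groups were apart by a small gap, between control 3 and stimulated 1. The log2 fold change was -0.44 (standard error 0.186, 95% interval -0.87 to -0.01, limma adjusted p = 0.526), and scaled fragments gave the same -0.44 with an adjusted p of 0.182 from limma, so the difference did not pass on either scale. Because Tlr2 and Cd14 were higher and Tlr4 lower, the ratio of Tlr2 to Tlr4 FPKM was 3.94, 3.55 and 3.61 in controls and 5.91, 7.29 and 7.68 in stimulated cultures. The ratio of Cd14 to Tlr4 was 3.68, 4.35 and 4.35 in controls and 7.56, 9.05 and 9.62 in stimulated cultures. In both ratios every stimulated library lay above every control.

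Of the endosomal receptors, Tlr7, a receptor of single-stranded RNA, and Tlr8 were lower in all stimulated libraries and the other 3 overlapped. Tlr7 (5 reference transcripts, chromosome X, 167304926 to 167330571, minus strand) stood at 71.5, 63.7 and 59.3 FPKM in controls and at 45.8, 44.0 and 36.1 FPKM in stimulated cultures. The lowest control was well above the highest stimulated library. The log2 fold change was -0.63 (standard error 0.143, 95% interval -0.96 to -0.30, limma adjusted p = 0.154), and on scaled fragments -0.63 (limma adjusted p = 0.000421).

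Tlr8 (NM_133212, chromosome X, 167242732 to 167263788, minus strand, 3 exons) lies next to Tlr7. It stood at 85.3, 74.7 and 60.6 FPKM in controls and at 56.8, 57.4 and 49.7 FPKM in stimulated cultures. The groups were apart, with control 3 close to stimulated 1 and 2. The log2 fold change was -0.42 on FPKM (standard error 0.151, limma adjusted p = 0.441) and -0.51 on scaled fragments (limma adjusted p = 0.000930). Tlr7 and Tlr8 together came to 157, 138 and 119.9 FPKM in controls and to 103, 101 and 85.8 FPKM in stimulated cultures.

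Tlr13 (NM_205820, chromosome X, 106143275 to 106160493, plus strand, 3 exons), a receptor for bacterial ribosomal RNA, was the endosomal receptor with the highest level and showed no difference. It stood at 90.1, 89.8 and 101.7 FPKM in controls and at 86.6, 92.9 and 86.9 FPKM in stimulated cultures, with overlapping groups. Its log2 fold change of -0.08 had a 95% interval of -0.31 to 0.15 (limma adjusted p = 0.840). The ratio of Tlr13 to Tlr7 was 1.26, 1.41 and 1.71 in controls and 1.89, 2.11 and 2.40 in stimulated cultures, so these X-linked receptors did not move in parallel. Xist was present in all 6 libraries at 19.8 to 23.6 FPKM and Uty, Kdm5d, Eif2s3y and Ddx3y of the Y chromosome were listed at 0 in all of them, in both groups alike, although the methods of the study name male mice.

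Tlr3 and Tlr9 were at the low end, where few fragments were counted. Tlr3 (NM_126166, chromosome 8, 45395665 to 45410539, minus strand, 7 exons), the receptor of double-stranded RNA, stood at 3.15, 3.56 and 2.64 FPKM in controls and at 5.86, 3.05 and 3.16 FPKM in stimulated cultures. The higher mean of the stimulated group came from stimulated 1 alone, and without that library the log2 fold change went from 0.30 to 0.0037. Tlr9 (NM_031178, chromosome 9, 106222598 to 106226876, plus strand, 2 exons), the receptor of DNA with unmethylated CpG, stood at 4.78, 0.818 and 2.91 FPKM in controls and at 4.52, 5.14 and 4.43 FPKM in stimulated cultures. Control 2 set the size of this difference, which was 1.01 on the log2 scale (limma adjusted p = 0.654) and became 0.32 without it. About 2.01 fragments were estimated for Tlr9 in control 2 and 7.04 to 12.1 in the other libraries. The 95% interval of the log2 fold change on FPKM ran from -0.54 to 1.15 for Tlr3 and from -0.35 to 2.36 for Tlr9.

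The counting error of each gene was taken from its estimated fragments. Over the 3 libraries of each group, Cd14 had an estimated 390 fragments in controls and 582 in stimulated cultures, a log2 ratio scaled to depth of 0.64 with an exact 95% interval of 0.46 to 0.83. Tlr2 had 628 and 837 fragments (interval 0.33 to 0.63), Tlr7 544 and 337 (-0.83 to -0.43) and Tlr8 806 and 540 (-0.67 to -0.35). Tlr1 had 79 and 130 fragments (0.37 to 1.21) and Tlr4 237 and 169 (-0.72 to -0.13). The interval excluded 0 for these 6 genes and included it for the other 4, where it lay above 0 for 7.72% and below 0 for 6.28% of all tested genes. Of those 4, Tlr13 had 812 and 734 fragments (-0.23 to 0.07) and Tlr9 only 21 and 33 (-0.12 to 1.58). These Clopper-Pearson intervals cover counting error and leave out the spread between cultures.

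**Figure D2:**
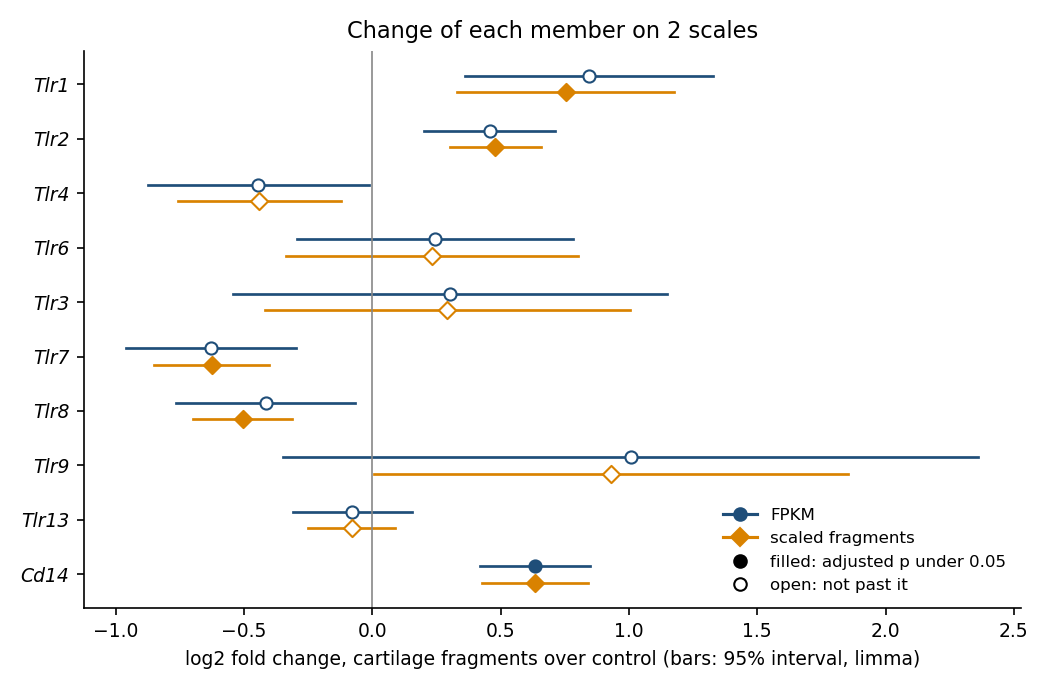
Log2 fold change of each gene with its 95% interval from limma, on FPKM (blue circles) and on scaled fragments (orange diamonds), filled where the adjusted p was under 0.05. Cd14 is filled on both scales, Tlr1, Tlr2, Tlr7 and Tlr8 on scaled fragments only, and the other 5 genes on neither.

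The classes were set side by side per library. The surface receptors summed to 172, 148 and 149 FPKM in controls and to 212, 210.0 and 179 FPKM in stimulated cultures. The endosomal receptors summed to 255, 232 and 227 FPKM in controls and to 199.6, 203 and 180.3 FPKM in stimulated cultures. On these sums surface receptors were the smaller class in every control, and the classes were close to equal in stimulated cultures. Most of the surface sum was Tlr2, on average 106.4 of 156.3 FPKM in controls and 145.7 of 200.3 FPKM in stimulated cultures. The ratio of surface to endosomal FPKM was 0.656 ± 0.0198 in controls and 1.03 ± 0.0354 in stimulated cultures (SD, n = 3), with surface receptors at 38.9% to 40.3% of the sum in controls and 49.8% to 51.5% in stimulated cultures. Counted in fragments, without division by length, the ratio was 0.448 ± 0.00203 in controls and 0.706 ± 0.0255 in stimulated cultures. On reference lines alone, which hold no Tlr8, the ratio was 0.693, 1.04 and 0.929 in controls and 1.73, 1.45 and 1.53 in stimulated cultures, so there the surface class was the larger in control 2 and in all stimulated cultures. The groups were apart as higher in all 3 readings. The median log2 fold change was 0.35 over the 4 surface receptors and -0.08 over the 5 endosomal receptors, against 0.0037 over all tested genes. Neither class was uniform, since Tlr4 went against the other surface receptors and Tlr6, Tlr13, Tlr3 and Tlr9 overlapped between groups.

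**Figure D3:**
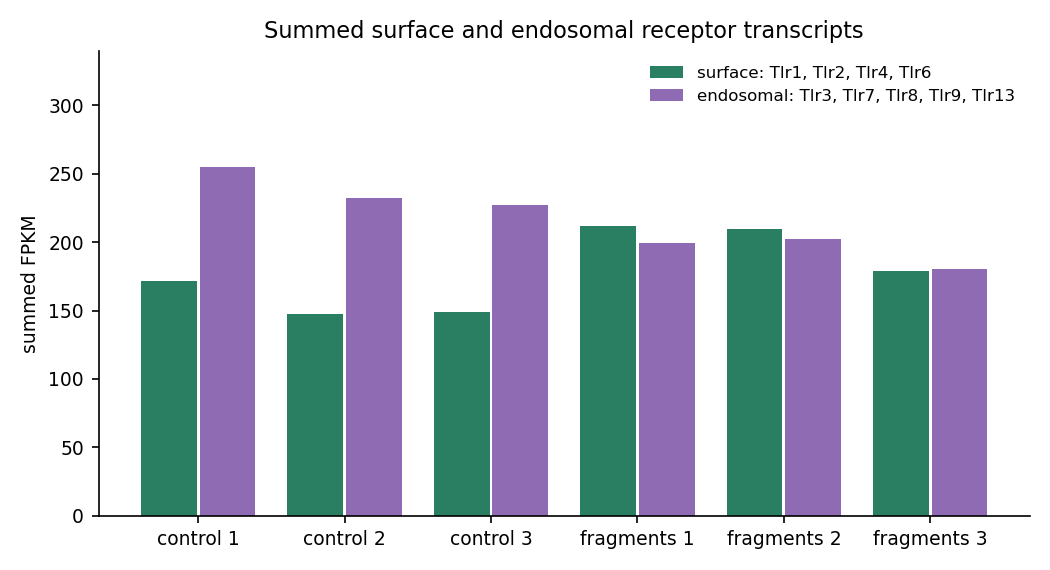
Summed FPKM of the 4 surface receptors (green) and the 5 endosomal receptors (purple) in each of the 6 libraries. The endosomal bar is the taller in the 3 controls, and the surface bar is 0.993 to 1.06 times the endosomal one in the 3 libraries with fragments.

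The values of several genes depended on which transcript lines were counted. Assembled lines carry no symbol and were added to a gene where they shared its Cufflinks locus and that locus held 1 symbol. Tlr8 had no FPKM on its reference transcript in any library: its whole value lay on assembled transcripts of up to 4688 to 5455 bases, which ran 1443 to 2145 bases past the annotated 3′ end (GENCODE M21), while the reference transcript had 3158 bases. By symbol alone Tlr8 would thus be listed at 0 in all 6 libraries. Tlr1 lay on an assembled line in control 3 alone, and its reference lines were at 0 there. For Tlr2, the reference line of control 1 held 63.8 of 120.3 FPKM. For Tlr4, the reference line of control 1 held 20.3 of 30.5 FPKM, and on reference lines the groups of Tlr4 overlapped. On reference lines the log2 fold change went from 0.84 to 3.19 for Tlr1, from 0.46 to 0.76 for Tlr2 and from -0.44 to -0.25 for Tlr4, none past the limma threshold.

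Cd14 and Tlr7 had assembled lines in several libraries. Those of Cd14 held 18.4 FPKM in control 2, 55.4 FPKM in stimulated 2 and 30.5 FPKM in stimulated 3, and their length of 1752 bases equalled the span of the locus, with no intron taken out. On reference lines Cd14 was still higher in every stimulated library, at 112, 105 and 118 FPKM in controls and 198, 129 and 138 FPKM in stimulated cultures, but the log2 fold change was 0.44 and the call was lost (limma adjusted p = 0.762). The reference lines of Tlr7 held 53.8, 47.4 and 39.4 FPKM in controls and 25.5, 44.0 and 22.3 FPKM in stimulated cultures, with overlapping groups, because in stimulated 2 the whole value lay on a reference line.

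**Figure D4:**
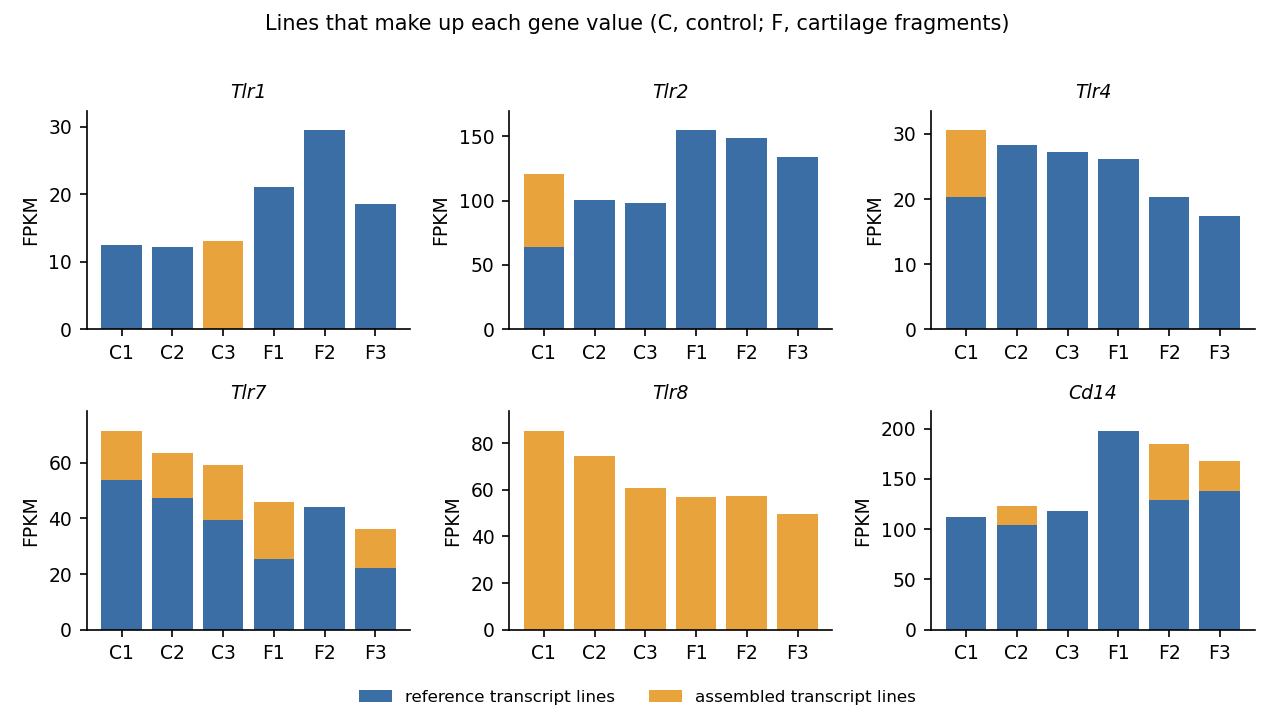
FPKM of 6 genes in each library (C1 to C3, control; F1 to F3, cartilage fragments), split into reference transcript lines (blue) and assembled lines of the same locus (orange). Tlr8 is orange throughout, Tlr1 only in C3, Tlr2 and Tlr4 partly in C1, Tlr7 in every library but F2, and Cd14 partly in C2, F2 and F3.

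The other genes of the pathway were described by list. Of the surface accessory proteins, 0 of 6 tested passed the limma threshold in either direction, and their groups overlapped for all 6. They include Ly96, which holds lipopolysaccharide for Tlr4 (29.4, 40.8 and 27.2 FPKM in controls and 51.2, 46.2 and 25.6 FPKM in stimulated cultures), and Cd36, which assists Tlr2 with Tlr6 (533 to 647 FPKM in controls and 514 to 538 FPKM in stimulated cultures). Of 9 genes of transport and processing, 0 passed on FPKM. Unc93b1, the chaperone of endosomal receptors, stood at 305 ± 2.19 FPKM in controls and 350.0 ± 25.3 FPKM in stimulated cultures, apart as higher (limma adjusted p = 0.447). Slc15a3, a transporter of the endosomal membrane, stood at 133 ± 7.53 and 119 ± 4.01 FPKM, apart as lower (limma adjusted p = 0.646), but on scaled fragments its groups overlapped and the log2 fold change went from -0.16 to -0.09. Lgmn, a protease known to cut endosomal receptors, stood at 449 ± 21.4 and 359 ± 9.86 FPKM (log2 fold change -0.32, limma adjusted p = 0.118). On scaled fragments Lgmn, Ctsb and Ctss, all lysosomal proteases, passed as lower.

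Among adaptors and kinases, 0 of 18 passed on FPKM. Myd88, the adaptor of nearly all members, stood at 45.4 ± 5.51 FPKM in controls and 55.7 ± 2.39 FPKM in stimulated cultures, and Irak2 at 14.1 ± 1.55 and 21.5 ± 1.44 FPKM, both apart as higher. On scaled fragments the groups of Myd88 overlapped and its log2 fold change went from 0.30 to 0.15. Irak1 stood at 29.9 ± 2.05 and 17.8 ± 7.11 FPKM, apart as lower. The median log2 fold change of this list was 0.03. Ikbke was the one gene of the list past the threshold on scaled fragments.

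Of 12 negative regulators 1 rose on FPKM, Irak3, a kinase-dead relative of the Irak kinases that restrains the signal. It rose from 26.0 ± 3.56 to 54.1 ± 5.10 FPKM (SD, n = 3), or 1.06 on the log2 scale (standard error 0.157, limma adjusted p = 0.0409), with an adjusted p of 0.0851 to 0.200 when 1 library was left out. Tnfaip3, the ubiquitin-editing enzyme A20, stood at 15.8 ± 2.06 and 29.1 ± 2.00 FPKM (limma adjusted p = 0.113), and Tnip3, a partner of A20, at 10.3 ± 4.18 and 19.0 ± 1.25 FPKM (limma adjusted p = 0.401), both apart as higher. On scaled fragments Irak3, Tnfaip3 and Tnip1 passed as higher. The median log2 fold change of the list was 0.51. It includes Socs1 (1.96, on about 1 and 4 fragments) and Sigirr (1.57, on about 3 and 6 fragments). Dusp1, Cyld and Rnf216 had negative log2 fold changes (-0.36, -0.44 and -0.24), and Rnf216 was apart as lower.

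Of 13 tested inducible targets 4 rose and 0 fell, where 0.308% of all tested genes were higher and 0.0577% lower. The median log2 fold change of the list was 1.76. Of the 13, 7 were apart as higher and 1 as lower, where 9.04% and 6.89% of all tested genes were. The lower one was Ptgs2, at 4.84 ± 0.394 FPKM in controls and 3.66 ± 0.527 FPKM in stimulated cultures (limma adjusted p = 0.706). The groups of Il10, Ccl3, Ccl4, Cxcl10 and Nfkbiz overlapped. Irg1, the enzyme that makes itaconate, rose from 7.65 ± 0.979 to 55.7 ± 3.92 FPKM (log2 fold change 2.85, limma adjusted p = 0.000521). Il1b, the precursor of interleukin-1 beta, rose from 2.38 ± 0.0534 to 14.96 ± 0.544 FPKM (log2 fold change 2.60, limma adjusted p = 0.00283). Il1b rested on about 6 fragments in controls and 36 in stimulated cultures, with an exact counting interval of 1.39 to 4.19. Each control held about 2.0 of them, so the SD is smaller than the counting error. The study itself reported no upregulation of IL-1β with fragments. Ccl5, a chemokine, and Socs3, an inhibitor of cytokine signalling, also rose, by 2.04 and 1.98 on the log2 scale. Neither call held in all fits that lacked 1 library, with limma adjusted p of up to 0.197 and 0.200. Tnf, a central inflammatory cytokine, stood at 13.2 ± 0.781 and 47.8 ± 18.9 FPKM (limma adjusted p = 0.0818), and the chemokine Cxcl2 at 4.59 ± 2.70 and 26.8 ± 2.55 FPKM (limma adjusted p = 0.102), both apart as higher, as was Lcn2, an iron-binding defence protein, at 39.9 ± 7.20 and 56.4 ± 5.55 FPKM (limma adjusted p = 0.368). Cxcl2 rested on about 9 fragments in controls and 51 in stimulated cultures. On scaled fragments Tnf, Cxcl2, Il1b, Irg1 and Socs3 passed as higher, and Ccl5 did not (limma adjusted p = 0.0526). Il6, Nos2 and Ifnb1 were listed at 0 in all 6 libraries. Il12b was at 0 in the 3 controls and at 0.584, 1.22 and 0.629 FPKM in stimulated 1 to 3, on about 1, 2 and 1 fragments. At this depth a value of 0 leaves room for low expression. Of 10 endogenous ligands 0 passed on either scale, and Hmgb1, a nuclear protein that can be released by damaged cells, stood at 50.7 ± 6.15 and 65.9 ± 4.50 FPKM.

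**Figure D5:**
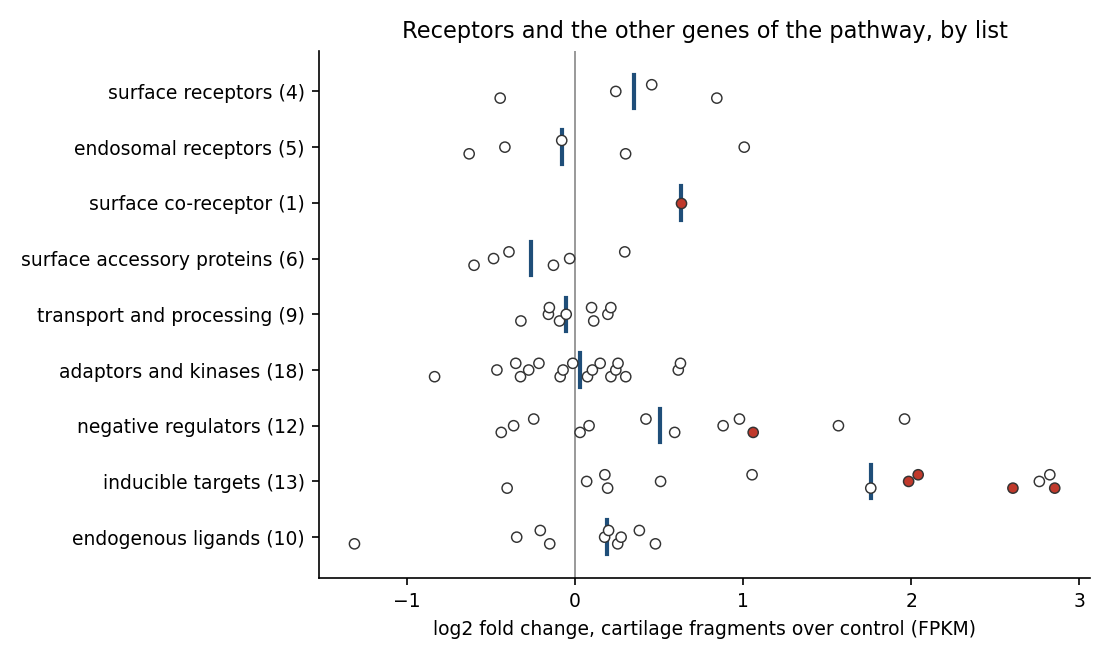
Log2 fold change on FPKM of each tested gene of 9 lists (number tested in brackets), red where the adjusted p from limma was under 0.05, with a blue bar at the median of the list. The red points are Cd14, Irak3 and 4 inducible targets, whose median of 1.76 lies farthest to the right.

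The genes whose profiles lay nearest to those of 4 receptors were taken from the 3409 genes whose mean reached 20 FPKM, by the root-mean-square distance of log2 values centred over the 6 libraries. For Tlr2 they were Rbpj, Mt1 and Mapkapk2, at distances of 0.0315 to 0.0626. For Cd14 they were Adgre1, Fgr and Cyfip1, at 0.0532 to 0.0549. Adgre1, which encodes the macrophage antigen F4/80, rose from 365 to 549 FPKM on average (limma adjusted p = 0.00965), a call that was lost without stimulated 1 or stimulated 2 (limma adjusted p = 0.0815 and 0.0557). For Tlr4 they were Zdhhc18, Lrmp and Colec12, and for Tlr8 Uvrag, Arl11 and Mphosph10. With 6 libraries in 2 groups, likeness of this kind describes the profiles and was not tested.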

How the data were processed

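RNA was sequenced as 100-bp paired-end reads from 3 control and 3 stimulated cultures, grouped by their titles. The authors used TopHat with Bowtie for alignment to mm10 and Cufflinks for each library, and per the file headers the deposited FPKM are listed per transcript beside the coverage, the mean read depth, which was used as a signal. Whether a normalization by TMM stated in the study's methods was applied to the deposited FPKM is not given in the sources used here. Versions of these tools are not given in the sources used here either. The files hold no read counts.

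FPKM were summed per symbol over the reference transcripts and over assembled transcripts of a locus with 1 symbol. Taking only lines that carry the symbol was an alternative. Every gene whose mean reached 1 FPKM was tested on log2(FPKM + 0.1) with limma 3.58.1 in R 4.3.3 (eBayes with trend and robust), two-sided, without a block, at an adjusted p of 0.05. Fragments were estimated from the deposited coverage, the transcript length and the read length, with a length offset of 211 to 220 bases chosen per library, after which 93.6% to 94.6% of values up to 8 lay within 0.1 of a whole number. Scaled fragments are these numbers per 1000000 of the library, with 1 added before log2. Python 3.11.15, pandas 2.3.3, scipy 1.17.1 and matplotlib 3.10.9 were used. The limma procedure was tested on simulated data.

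Replicate numbers recur in both groups without a stated pairing. In 20 alternative fits the analysis changed the pseudocount, the filter, the scaling, the variance moderation, weights, the block, the lines counted and the unit, and left out each of the 6 libraries in turn. The genes, the lists and the rule for naming genes (genes of a list past the threshold, and up to 3 with the largest change among those whose groups were apart) were chosen with earlier results of these data known. Ly96, Cd36, Ctsb, Ctss, Ikbke, Il6, Il12b, Nos2, Ifnb1, Dcn, Ngp, Ltf, Elane and Mpo were named after their values were seen. So were Ptgs2, Il10, Ccl3, Ccl4, Cxcl10, Nfkbiz, Socs1, Sigirr, Dusp1, Cyld, Rnf216 and Col3a1. Protein sequences were not used here.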

Additional observations from a re-analysis of the deposited data

Results flagged for a closer look

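Next to Tlr8, 2 assembled transcripts that shared no locus with a symbol, and so entered no value above, were found in stimulated libraries and in no control. They lay on chromosome X within 2000 bases of the Tlr8 lines, at 167240132 to 167241038 in stimulated 1 (907 bases, 23.1 FPKM, about 12 fragments) and at 167240124 to 167240946 in stimulated 2 (823 bases, 22.8 FPKM, about 9.92 fragments). In control 3 the assembled Tlr8 transcript itself began at 167240551 and so reached into the same stretch. With such fragments added to the nearest receptor, an alternative added after the data were seen, the log2 fold change of Tlr8 on scaled fragments was -0.45 (adjusted p = 0.00523 from limma). Pieces of the same kind lay near Tlr7 in control 1 (47.9 FPKM over 476 bases) and near Tlr4 in control 2 (31.3 FPKM over 808 bases).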

How the results depend on the processing

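None of the 10 genes changed direction under any of the alternative fits that gave it a value. Cd14 was past the threshold in 9 of 20, with an adjusted p of up to 0.762 from limma. The count of 1 higher gene among the 10 became 0 with equal totals, quantile normalization, plain eBayes, reference lines only and the replicate block, was 0 with any 1 library left out, and became 3 on scaled fragments, where 2 genes were lower instead of 0. Over all genes, 32 higher and 6 lower became 164 and 87 on scaled fragments, also with nearby assembled lines added. Higher genes numbered 13 with plain eBayes and 15 on reference lines only. The replicate block gave 17 higher and 1 lower, and since deviations of same-numbered libraries did not go together (r of -0.018, -0.0024 and 0.0099) the numbers were not taken as pairs. With 1 library left out, 9 to 27 genes were higher and 0 to 6 lower. The lowest pair, 9 and 0, came without stimulated 1, and without stimulated 2 there were 15 higher genes. Leaving out control 1 gave 19 and 3, and leaving out control 2 or control 3 gave 3 lower genes each time. The endosomal median of -0.08 became -0.42 with a minimum of 5 FPKM, which leaves out Tlr3 and Tlr9, and 0.11 on reference lines only, which leave out Tlr8. No value for Tlr8 could be had on reference lines, nor for Tlr3 and Tlr9 with that minimum. Depth limits Tlr3, Tlr9 and Tlr6 most, with 21 to 53 fragments per group.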
